A study of Bos taurus with 30 samples.

Results

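The enzymes that cut the extracellular matrix and the lysosomal contents of cells, together with the proteins that hold those enzymes in check, were followed in the uterine lining of pregnant cows. Members were taken by gene symbol alone from the array's annotation: matrix metalloproteinases (MMP), their tissue inhibitors (TIMP), the membrane and secreted relatives ADAM and ADAMTS, the cathepsins (CTS), the serpins, and the plasminogen activators PLAU and PLAT with the receptor PLAUR. SERPINA14 and SERPING1 were left out by the rule, which itself uses no measured value. This gave 57 probes for 54 genes, of 8645 probes for 8073 genes that carried a single symbol and of 13824 probes in all. The 54 genes were 13 MMPs, 3 TIMPs, 7 ADAMs, 5 ADAMTS, 10 cathepsins, 13 serpins and 3 genes of the plasminogen activators. One serpin probe carries 2 gene IDs and is counted but not named. All 57 probes had enough values to be tested.

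Each of the 30 two-colour arrays compared caruncular with intercaruncular endometrium of a single cow. Caruncles are the aglandular buttons of stroma on which the bovine placenta attaches, and the intercaruncular area between them holds the uterine glands. The 15 cows carried pregnancies from artificial insemination (AI, 5 cows), from transfer of an embryo fertilised in vitro (IVF-ET, 5 cows) or from transfer of a cloned embryo, obtained by somatic cell nuclear transfer (SCNT, 5 cows), with 2 arrays per cow. No day of pregnancy, age or breed of the cows is given in the sources used here, and all 15 were pregnant, so no group shows the lining without an embryo.

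Matrix turnover in the uterus rests on a balance. MMPs are secreted or membrane-bound zinc enzymes that cut collagens and other matrix proteins and are blocked by TIMPs; plasminogen activators make plasmin, which can activate MMPs, and serpins trap serine proteases. ADAMs shed the outer parts of membrane proteins, ADAMTS enzymes process matrix proteins, and cathepsins digest proteins in lysosomes and, when secreted, outside the cell. In ruminants, whose placenta invades little, this system is known for the remodelling of caruncular stroma during attachment and for the uterine secretion of cathepsins and serpins.

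A value here is a log ratio between both areas of one cow, taken as log2 since the base is not stated. The sources also do not settle which area is the numerator, so values are given as lying on the positive or the negative side, and no member is said to be higher in a named area. The 2 arrays of a cow were averaged and the cow was the replicate. IVF-ET replicate 3 stayed out of the fit because its labels give both arrays the same dye orientation while the arrays opposed each other (r = -0.32 over probes), which leaves 4 IVF-ET cows. Arrays held a value for 26744 to 27643 of 27648 spots, with a spread over spots of 0.257 to 0.831 (SD). After removal of the dye effect the 2 arrays of a cow correlated weakly (median r over probes 0.12, and 0.27 over the members). SCNT replicate 5 stood apart, with 9.14% of all probes beyond 1 log2 unit in either direction against at most 1.03% in any other cow of the fit. The mean AI profile ran opposite to the others over all probes (r = -0.27 with IVF-ET and -0.29 with SCNT) and over the members (r = -0.67 and -0.32), whereas IVF-ET and SCNT ran together (0.45 and 0.41). The sign of the AI group is therefore unsettled, and comparisons with AI are given as deposited and with the sign turned. Turning the whole group does not change how the 2 arrays of a cow relate. The arrays of AI replicate 1, which was kept, correlated at 0.02 over all probes and at -0.16 over the members. The labels number the arrays group after group, so an effect of that order and an effect of the group cannot be told apart.

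In SCNT pregnancies 3 members passed the test, and each lay on the negative side in 5 of 5 cows: the gelatinase MMP2, the sheddase ADAM9 and the collagen chaperone SERPINH1. The 3 are 5.26% of the 57 member probes, against 1.82% of all 13818 probes tested (252 probes; limma with Benjamini-Hochberg adjustment, 0.05). On the negative side alone 1.06% of all probes passed. At an unadjusted limma p under 0.05 there were 14 member probes (24.6%, against 14.8% of all probes), and 13 of them lay on the negative side (22.8% against 8.73%). In IVF-ET no member passed the adjusted limma test, beside 0% of all probes, with 4 members at an unadjusted p under 0.05 (7.02% against 7.95%). In AI no member passed the adjusted limma test either (0% of all probes), and 8 members were at an unadjusted p under 0.05 (14% against 4.37%), all 8 on the positive side (against 2.21% of all probes). Over the mean of the 3 groups as deposited none passed (0% of all probes), with 5 at an unadjusted p under 0.05 (8.77% against 9.52%).

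The families differed in how far they lay from 0 in SCNT. The median over genes was -0.36 for cathepsins, with 9 of 10 on the negative side, and -0.57 for the 3 TIMPs. Both rest in part on SCNT replicate 5: without it the cathepsin median was -0.21, with 8 of 10 negative, and the TIMP median -0.27, with 2 of 3 negative. With every SCNT cow in, the TIMP median is the mean of the first TIMP2 probe, for which no direction is given. The second TIMP2 probe, not used in this median, lay between 0.19 and 0.62 in the SCNT cows. Without SCNT replicate 3 the TIMP median was -0.87, which is the mean of TIMP1. The median was 0.03 for MMPs, 0.08 for ADAMs, -0.03 for ADAMTS, -0.06 for serpins and -0.09 for the plasminogen activator genes. With 1 SCNT cow left out in turn these 5 stayed between -0.13 and 0.12, and that of the ADAMs was negative, at -0.05 and -0.09, without replicate 3 or 5. Over all 54 genes the median was -0.06 with 32 on the negative side, beside -0.00 and 6933 of 13818 over all probes. The cathepsin median was -0.08 in IVF-ET (8 of 10 negative) and 0.10 in AI (3 of 10 negative).

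**Figure D1:**
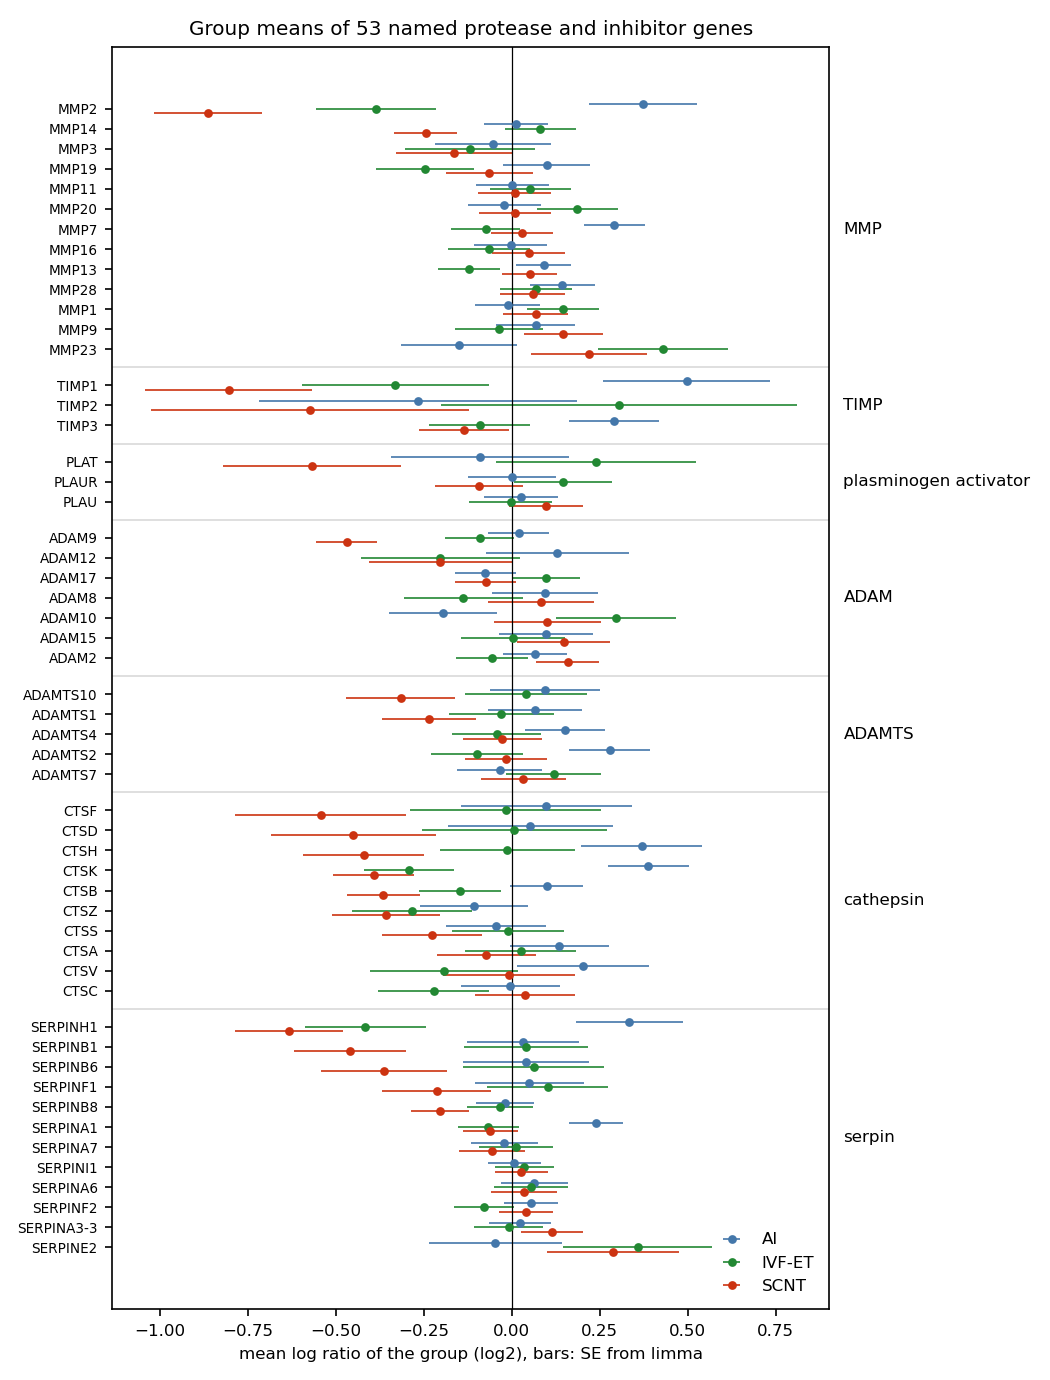
Mean log2 ratio of each named gene (horizontal axis) in AI, IVF-ET and SCNT cows, with the SE from limma as bars, ordered by family and by the SCNT mean; genes with more than one probe are shown by the first. MMP2 at -0.86 and TIMP1 at -0.80 lie farthest to the negative side in SCNT, and the cathepsins of SCNT lie mostly left of 0.

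MMP2 (gene ID 282872), the gelatinase that cuts denatured collagen and the collagen of basement membranes, had the largest SCNT mean of all members. The SCNT cows were at -0.79, -0.44, -0.35, -1.32 and -1.42, the IVF-ET cows at -0.60, -0.42, -0.26 and -0.26, and the AI cows at -0.11, 0.66, 0.81, 0.30 and 0.19. Every SCNT and IVF-ET cow was thus negative, 4 of 5 AI cows were positive, and no SCNT value reached the AI range. The SCNT mean of -0.86 ± 0.15 (SE, n = 5) is a 1.82-fold difference between the areas and passed limma at an adjusted p of 0.0117. The IVF-ET mean of -0.39 ± 0.17 and the AI mean of 0.37 ± 0.15 did not pass (adjusted limma p 0.592 and 1). Both arrays of a cow lay on one side in 12 of 14 cows, the exceptions being AI replicate 1 (-1.15 and 0.94) and AI replicate 5 (-0.06 and 0.45). Without SCNT replicate 1 the mean was -0.88 and the adjusted p 0.0526, with 2 of all probes left past the threshold.

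MMP14, the membrane-bound enzyme that activates the MMP2 proenzyme together with TIMP2, had a negative mean in SCNT that did not pass. Its SCNT cows were at -0.20, -0.29, -0.49, 0.08 and -0.33, with a mean of -0.25 ± 0.09 (adjusted limma p 0.195). The means were 0.08 ± 0.10 in IVF-ET and 0.01 ± 0.09 in AI. MMP23, a transmembrane member of the family, went the other way from MMP2. Its IVF-ET cows were at 0.61, 0.47, 0.58 and 0.06 and its SCNT cows at 0.32, 0.38, 0.85, 0.23 and -0.69, so that 1 SCNT cow left an otherwise positive row. The means were 0.43 ± 0.18 in IVF-ET (adjusted limma p 0.58) and 0.22 ± 0.17 in SCNT (adjusted p 0.6). MMP23 of AI cows lay at -0.05, -0.45, -0.38, -0.26 and 0.39.

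The matrilysin MMP7, an MMP made mainly by epithelia, was positive in all 5 AI cows at 0.58, 0.15, 0.20, 0.36 and 0.17. Its AI mean of 0.29 ± 0.09 had an unadjusted limma p of 0.00433 and an adjusted p of 1, and its means were -0.07 in IVF-ET and 0.03 in SCNT. For MMP7 both arrays of a cow lay on one side in 7 of 14 cows, and those of AI replicate 1 were at -0.00 and 1.16. The other MMPs lay close to 0. The collagenases MMP1 and MMP13 had SCNT means of 0.07 and 0.05, the gelatinase MMP9 was at 0.15 ± 0.11, and the stromelysins MMP3 and MMP11 at -0.16 ± 0.16 and 0.01 ± 0.10. MMP16, MMP19, MMP20 and MMP28 had SCNT means of 0.05, -0.06, 0.01 and 0.06. None of these 9 genes passed an adjusted test in any group. MMP1 and MMP20 were positive in all 4 IVF-ET cows, with means of 0.15 and 0.19.

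**Figure D2:**
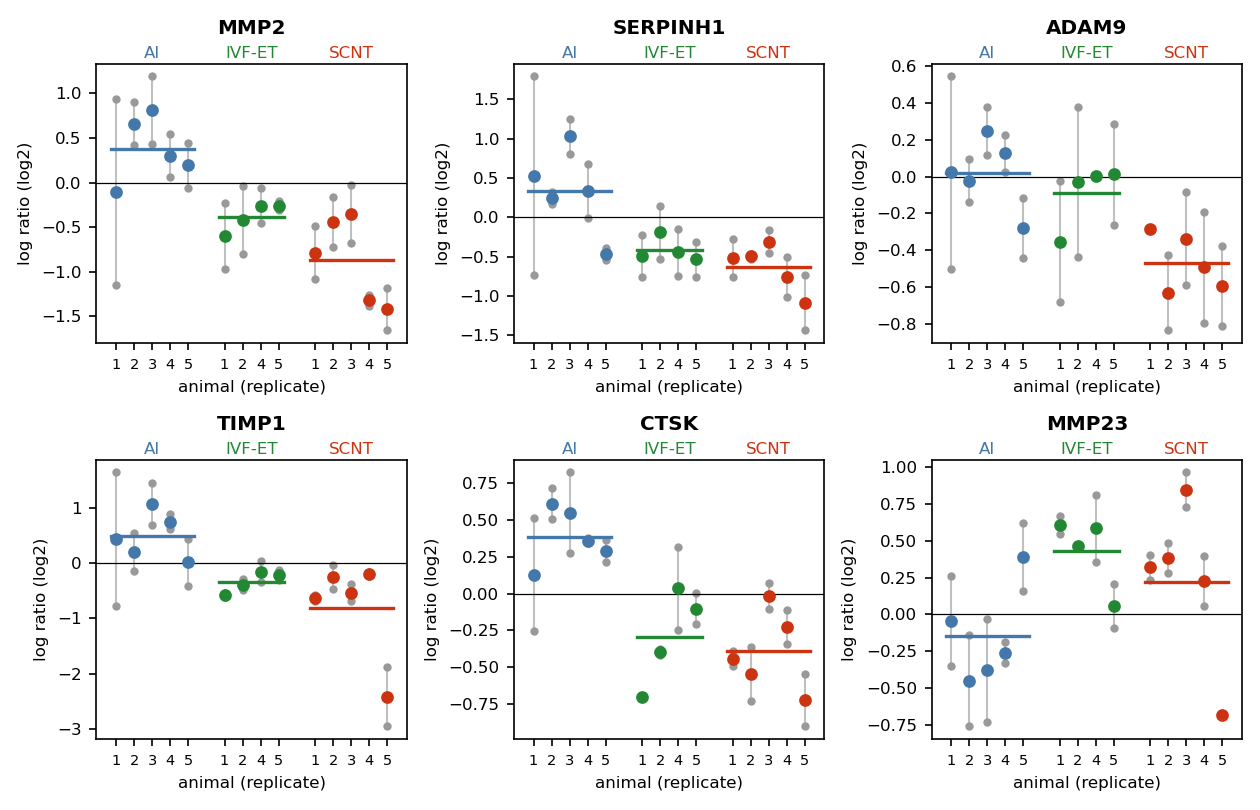
Log2 ratio (vertical axis, own scale in each panel) of 6 members in each cow: coloured points are cow means, grey points joined by a line are the 2 arrays of the cow after dye correction, and bars are group means. MMP2, SERPINH1 and ADAM9 are negative in 5 of 5 SCNT cows, and the grey pairs of AI replicate 1 lie on both sides of 0 for every gene shown.

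Of the inhibitors of MMPs, TIMP1 (gene ID 282092), a secreted inhibitor of most MMPs, was on one side within each group. It stood at -0.63, -0.25, -0.54, -0.19 and -2.42 in SCNT, at -0.58, -0.39, -0.15 and -0.21 in IVF-ET, and at 0.44, 0.20, 1.07, 0.75 and 0.02 in AI. The cow means of the groups with a transferred embryo therefore did not overlap with AI as deposited. For IVF-ET against AI the share of all probes without overlap was not counted. Both TIMP1 arrays of a cow lay on one side in 10 of 14 cows. They were opposed in AI replicates 1 (-0.77 and 1.65), 2 (0.55 and -0.14) and 5 (-0.40 and 0.44), and in IVF-ET replicate 4 (-0.34 and 0.04). The SCNT mean of -0.80 ± 0.24 did not pass (adjusted limma p 0.1) and was -0.40 ± 0.14 without SCNT replicate 5 (adjusted p 0.18). The IVF-ET mean was -0.33 ± 0.27 and the AI mean 0.50 ± 0.24 (adjusted p 0.869 and 1). TIMP3, the inhibitor that binds to the matrix, had means of -0.14 ± 0.13 in SCNT, -0.09 ± 0.14 in IVF-ET and 0.29 ± 0.13 in AI.

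TIMP2, the inhibitor that bridges MMP14 and the MMP2 proenzyme, gave a different answer by probe. Its first probe was at 0.12, -0.37, 0.82, 0.45 and -3.88 in the SCNT cows, and its second at 0.19, 0.33, 0.62, 0.52 and 0.33. In SCNT replicate 5 the probes thus lay on opposite sides. The first probe's mean of -0.57 ± 0.45 (adjusted limma p 0.617) became 0.25 without that cow, while the second probe's mean was 0.40 ± 0.12 (adjusted p 0.12). Over 14 cows the 2 probes correlated at r = 0.19, with 11 cows on the same side of 0. No direction is given for TIMP2 in SCNT.

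The plasminogen activators are serine proteases that turn plasminogen into plasmin. The tissue-type activator PLAT was at -0.59, 0.13, 0.21, -0.22 and -2.37 in SCNT, so that its mean of -0.57 ± 0.25 rested on SCNT replicate 5, and the mean of the other 4 cows was -0.12 ± 0.36 (SD). It did not pass (adjusted limma p 0.307). The urokinase PLAU had means of 0.10 ± 0.11 in SCNT, -0.00 ± 0.12 in IVF-ET and 0.03 ± 0.11 in AI, and its receptor PLAUR was at -0.09 ± 0.13, 0.15 ± 0.14 and 0.00 ± 0.13.

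ADAM9 (gene ID 281600), a membrane metalloprotease that sheds growth factors and receptors from the cell surface, varied least between cows of the 3 members that passed in SCNT. The SCNT cows were at -0.29, -0.63, -0.34, -0.49 and -0.60, a range with no cow apart. The mean was -0.47 ± 0.09 (SE, n = 5), a 1.38-fold difference between the areas, at an adjusted limma p of 0.0135. The IVF-ET cows were at -0.35, -0.03, 0.00 and 0.01 and the AI cows at 0.02, -0.02, 0.25, 0.13 and -0.28, with means of -0.09 ± 0.10 and 0.02 ± 0.09. The adjusted p was 0.0505 without SCNT replicate 1 and 0.0581 without SCNT replicate 2.

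No other ADAM passed. ADAM10, the sheddase that cleaves Notch receptors, had means of 0.10 ± 0.15 in SCNT, 0.30 ± 0.17 in IVF-ET and -0.20 ± 0.15 in AI. ADAM12, which is abundant in placenta, was negative in 4 of 5 SCNT cows, with a mean of -0.20 ± 0.20. ADAM8 of SCNT was at 0.92 in replicate 5 with the other 4 cows below 0, and ADAM2, a sperm surface protein, had an SCNT mean of 0.16 ± 0.09. The 2 probes of ADAM15 did not follow each other over cows (r = -0.00, 7 of 14 cows on the same side). Among the ADAMTS enzymes, ADAMTS10 and ADAMTS1 had the lowest SCNT means at -0.32 ± 0.16 and -0.24 ± 0.13. ADAMTS2, which trims the amino end of fibrillar procollagens, had an AI mean of 0.28 ± 0.12 (adjusted limma p 1) and an SCNT mean of -0.02 ± 0.12, and ADAMTS7 was at 0.03 ± 0.12 in SCNT.

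Cathepsins lay to the negative side in SCNT without a single gene passing. CTSK (gene ID 513038), a cysteine protease that cuts native collagen, was at -0.44, -0.55, -0.02, -0.23 and -0.72 in SCNT, at -0.71, -0.40, 0.04 and -0.10 in IVF-ET, and at 0.13, 0.61, 0.55, 0.36 and 0.29 in AI. No SCNT or IVF-ET value reached the AI range. The means were -0.39 ± 0.11 in SCNT (adjusted limma p 0.0982), -0.29 ± 0.13 in IVF-ET (0.584) and 0.39 ± 0.11 in AI (unadjusted p 0.0039, adjusted p 1).

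CTSB, a widely expressed lysosomal cysteine protease named here after its values were seen, was at -0.37, -0.46, -0.48, -0.23 and -0.30 in SCNT. Its mean of -0.37 ± 0.10 had an adjusted limma p of 0.087, so 5 of 5 cow means on one side within a narrow range still missed the threshold. Behind these means, the 2 CTSB arrays of SCNT replicate 3 lay on opposite sides, at 0.13 and -1.09. CTSH, an aminopeptidase of lysosomes, was at -0.16, -0.08, -0.39, -0.21 and -1.26 in SCNT, with a mean of -0.42 ± 0.17 (adjusted p 0.255), and at 0.37 ± 0.17 in AI.

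The aspartic protease CTSD was measured by 2 probes that followed each other over the cows (r = 0.93). In SCNT its first probe was at -0.31, -0.11, 0.28, 0.03 and -2.16 and its second at 0.08, -0.00, 0.34, 0.02 and -2.44. Both means, -0.45 ± 0.24 and -0.40 ± 0.28, therefore came from 1 cow, as did that of CTSF, a cysteine protease, at -0.54 ± 0.24 with replicate 5 at -2.26 and the other 4 between -0.36 and 0.38. CTSZ, a carboxypeptidase, had means of -0.36 ± 0.15 in SCNT, -0.28 ± 0.17 in IVF-ET and -0.11 ± 0.15 in AI. CTSC, the activator of granule serine proteases, and CTSV were the nearest to 0 in SCNT at 0.04 ± 0.14 and -0.01 ± 0.19. For both, replicate 5 lay opposite to the mean of the other 4 SCNT cows: -0.29 against 0.12 for CTSC and 0.77 against -0.20 for CTSV. By cow, the median over the 10 cathepsins was -0.28, -0.17, 0.03, -0.14 and -0.73 in SCNT, so 1 of 5 SCNT cows was not negative.

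SERPINH1 (gene ID 510850) is a serpin without protease inhibition that chaperones procollagen in the endoplasmic reticulum. Its SCNT cows were at -0.52, -0.50, -0.31, -0.76 and -1.09, its IVF-ET cows at -0.49, -0.19, -0.44 and -0.54, and its AI cows at 0.53, 0.25, 1.03, 0.33 and -0.47. All cows of both transfer groups were negative, and AI replicate 5 lay among them. The SCNT mean of -0.63 ± 0.15 (SE, n = 5), a 1.55-fold difference between the areas, passed limma at an adjusted p of 0.0476, while -0.42 ± 0.17 in IVF-ET (0.56) and 0.33 ± 0.15 in AI (1) did not. This call is close to the threshold: without SCNT replicate 5 the mean was -0.52 and the adjusted p 0.113, and 11 of the 14 fits that left out 1 cow lost it.

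Among the other serpins none passed in any group. SERPINE2, an inhibitor of thrombin, plasmin and urokinase, was positive in 5 of 5 SCNT cows at 0.13, 0.18, 0.62, 0.20 and 0.31, but its AI cows ranged from -1.04 to 0.66. Its means were 0.29 ± 0.19 in SCNT and 0.36 ± 0.21 in IVF-ET. SERPINA1, the inhibitor of neutrophil elastase, was positive in all 5 AI cows at 0.30, 0.08, 0.44, 0.16 and 0.21 (mean 0.24 ± 0.08, unadjusted limma p 0.00716, adjusted p 1), with means of -0.07 in IVF-ET and -0.06 in SCNT. For SERPINA1 both arrays of a cow lay on one side in 9 of 14 cows. SERPINB1, a cytosolic inhibitor of neutrophil proteases, had an SCNT mean of -0.46 ± 0.16 (adjusted limma p 0.164), with replicate 5 at -1.29. SERPINA3-3 was at 0.12 ± 0.09.

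Agreement of all cows on a side was counted as well. In SCNT 9 member probes were negative in every cow (15.8%, against 6.98% of all probes): MMP2, SERPINH1, ADAM9, TIMP1, CTSB, CTSH, CTSK, CTSS and SERPINB8. A further 3 were positive in every SCNT cow (5.26% against 7.36%), which were SERPINE2 and a single probe each of TIMP2 and ADAM15. In IVF-ET 3 were negative in all 4 cows (5.26% against 11% of all probes), namely MMP2, SERPINH1 and TIMP1, and 4 positive (7.02% against 10.9%), namely MMP1, MMP20, MMP23 and ADAM17. In AI 4 were positive in every cow (7.02% against 2.73%), namely CTSK, MMP7, SERPINA1 and TIMP1, and 0 negative (against 2.2%). CTSS, SERPINB6, SERPINB8 and ADAM17 are named in the text after their values were seen.

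Between groups the question is whether the contrast of the areas depends on how the pregnancy was obtained. For SCNT minus AI as deposited, 3 members passed limma (5.26% against 0.948% of all probes), all 3 on the negative side (against 0.536%): MMP2 at -1.24 ± 0.22 (adjusted p 0.0157), SERPINH1 at -0.97 ± 0.22 (0.0458) and CTSK at -0.78 ± 0.16 (0.0382). TIMP1 had the largest difference, -1.30 ± 0.34, with an adjusted p of 0.0838. At an unadjusted limma p under 0.05 there were 11 members (19.3% against 12.9%). In 5 members every SCNT cow lay below every AI cow (8.77% against 1.65% of all probes): MMP2, ADAM9, TIMP1, CTSK and SERPINA1. No member lay above in the same way (0% of members, against 1.19% of all probes).

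With the sign of AI turned, no member passed for SCNT minus AI (0% of all probes). MMP2 then differed by -0.49 ± 0.22 (adjusted limma p 0.764), SERPINH1 by -0.30 ± 0.22 (0.811) and CTSK by -0.00 ± 0.16 (0.996). The call between SCNT and AI thus depends on a sign that the sources do not settle. Without AI replicate 2, 3 or 4 no member passed, beside 0.253%, 0.0362% and 0.0507% of all probes, while the MMP2 difference stayed at -1.16, -1.13 and -1.25 (adjusted limma p 0.0504, 0.0644 and 0.0616). Without AI replicate 5 there were 5 members (1.69% of all probes) and without SCNT replicate 5 there were 4 (1.74%).

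IVF-ET minus AI, which shares the AI cows with that comparison, had no member past the adjusted limma test (against 0.0579% of all probes) and 10 at an unadjusted p under 0.05 (17.5% against 8.37%). MMP2 was at -0.76 ± 0.23 (adjusted p 0.315), SERPINH1 at -0.75 ± 0.23 (0.315), CTSK at -0.68 ± 0.17 (0.221) and TIMP1 at -0.83 ± 0.36 (0.541). With the sign of AI turned none passed there either (0% of all probes).

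SCNT minus IVF-ET needs no choice of sign for AI. No member passed the adjusted limma test (0% of all probes) and 3 were at an unadjusted p under 0.05 (5.26% against 4.41%), namely ADAM9, MMP14 and PLAT. ADAM9 differed by -0.38 with a 95% interval from -0.66 to -0.10 (adjusted p 0.915) and MMP14 by -0.33 with an interval from -0.62 to -0.04. MMP2 differed by -0.48 with an interval from -0.96 to 0.01 and SERPINH1 by -0.22 with an interval from -0.71 to 0.27, so neither a sizeable difference nor none can be read from these 9 cows.

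If the AI values are turned and the mean of the 3 groups is tested, 4 members passed limma (7.02% against 3.19% of all probes), all 4 on the negative side (against 1.62%). MMP2 was at -0.54 ± 0.09 (adjusted p 0.00635; 13 of 14 cows negative), CTSK at -0.36 ± 0.07 (0.0107; 13 of 14), SERPINH1 at -0.46 ± 0.09 (0.013; 13 of 14) and TIMP1 at -0.54 ± 0.14 (0.0496; 14 of 14). As deposited the same means were -0.29, -0.10, -0.24 and -0.21, none of which passed. The turn was chosen because the AI profile ran opposite to the others in these same values. It tends to bring the groups onto one side before their mean is tested, so these p-values and cow counts are no independent support.

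A description that no turning of an array can alter was added. For each array the median of 12 stromal fibroblast genes (collagens, DCN, THY1 and others) minus the median of 12 epithelial genes (CDH1, keratins, OCLN and others) served as a reference, and it was counted on how many of the 30 arrays, IVF-ET replicate 3 included, a member lay on the same side. The reference was negative on 10 of 10 SCNT arrays and 9 of 10 IVF-ET arrays, and positive on 8 of 10 AI arrays. On the arrays of AI replicate 1 it was at -1.44 and 1.43, and on those of AI replicate 5 at -0.61 and 0.06.

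MMP2 lay on the side of the stromal genes on 29 of 30 arrays, the exception being an array of SCNT replicate 2. After removal of the dye effect MMP2 was at -0.16 on that array. SERPINH1 lay on the stromal side on 28 arrays, CTSK on 27, TIMP1 on 26, and ADAMTS1 and CTSH on 24 each. These 6 are 10.5% of member probes at 24 or more arrays, against 2.93% of all probes. ADAM9 lay there on 23 arrays, namely on 10 of 10 in SCNT, 6 of 10 in IVF-ET and 7 of 10 in AI. MMP23 lay on the opposite side on 26 arrays and the second TIMP2 probe on 25 (3.51% of member probes, against 3.31% of all probes), and SERPINE2 on 23 of 29. Members were also set against each other: MMP2 shared its side with SERPINH1 on 27 arrays, with CTSK on 26 and with TIMP1 on 25, while the median over 1431 pairs of members was 15. MMP2 and MMP23 shared a side on 5 of 30 arrays. In whole tissue, fewer cells of a type and less RNA per cell cannot be told apart.

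**Figure D3:**
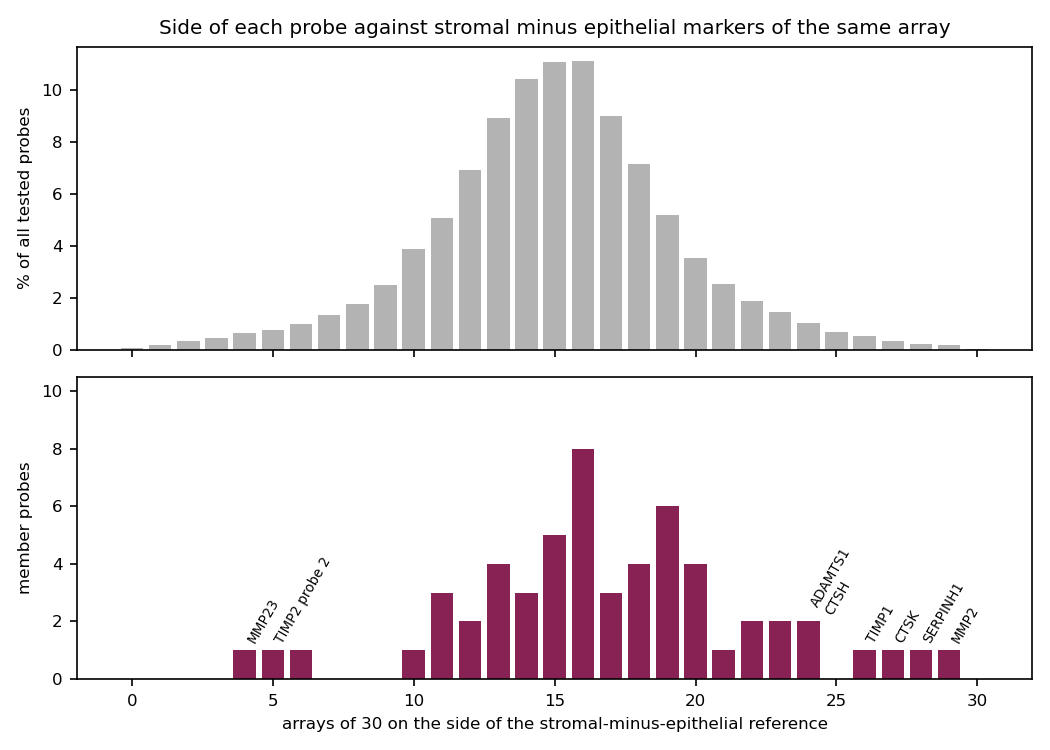
Number of arrays, of 30, on which a probe lay on the same side as the stromal minus epithelial reference of that array (horizontal axis): percentage of all tested probes at each number above, number of member probes below, with members at 24 or more and at 5 or fewer named. MMP2 at 29 arrays lies far into the right tail and MMP23 at 4 arrays into the left.

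The marker lists differed in how they ran by group. The medians of the stromal and smooth muscle lists had the sign of the means of MMP2, SERPINH1, CTSK and TIMP1 in each group. That of the epithelial list had the opposite sign, and the gland, leukocyte and trophoblast medians kept 1 sign throughout. Stromal fibroblast genes had a median of -0.85 in SCNT (12 of 12 negative, 5 past the limma threshold), -0.47 in IVF-ET (10 of 12 negative) and 0.21 in AI (10 of 12 positive). Epithelial genes had medians of 0.39, 0.55 and -0.15, with 4 past the threshold in SCNT. By cow the stromal median ran from -0.74 to -0.31 in SCNT, from -0.69 to -0.20 in IVF-ET and from -0.08 to 0.50 in AI. The smooth muscle median held both signs in every group: -0.20 to 0.12 in SCNT, -0.43 to 0.23 in IVF-ET, -0.34 to 0.81 in AI. The 4 gland genes had medians of 0.21, 0.25 and 0.03, the 7 leukocyte genes 0.09, 0.06 and 0.04, the 5 endothelial genes -0.00, 0.05 and 0.12, and the 5 smooth muscle genes -0.09, -0.15 and 0.30. The 6 trophoblast genes had medians of -0.21, -0.10 and -0.13, with SCNT replicate 3 at -1.02, and the 1 gene of red blood cells was at 0.03 in SCNT. Ratios give no level, so whether a marker is absent from an area cannot be read from them. The part of the mix of cells in the results for MMP2, SERPINH1, CTSK, TIMP1 and ADAM9 was not tested.

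SCNT replicate 5 carried many of the large values. There 12 of 57 member probes lay below -1 (21.1%) and none above 1, and over all probes 1106 lay below -1 and 157 above 1. The first TIMP2 probe at -3.88, the CTSD probes at -2.44 and -2.16, TIMP1 at -2.42, PLAT at -2.37 and CTSF at -2.26 were the farthest, followed by SERPINB6 at -1.59, MMP2, SERPINB1, CTSH, MMP3 and SERPINH1. In the other 4 SCNT cows TIMP1 had a mean of -0.40 ± 0.21 (SD, n = 4), MMP2 of -0.73 ± 0.44, SERPINH1 of -0.52 ± 0.18 and ADAM9 of -0.44 ± 0.16, while CTSD (-0.02 ± 0.25), CTSF (-0.11 ± 0.34) and SERPINB6 (-0.06 ± 0.21) lay near 0. Its arrays agreed better than those of any other cow (r = 0.79 over all probes and 0.88 over the members). Without it MMP2 and ADAM9 still passed in SCNT, 2 members among 222 probes.

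**Figure D4:**
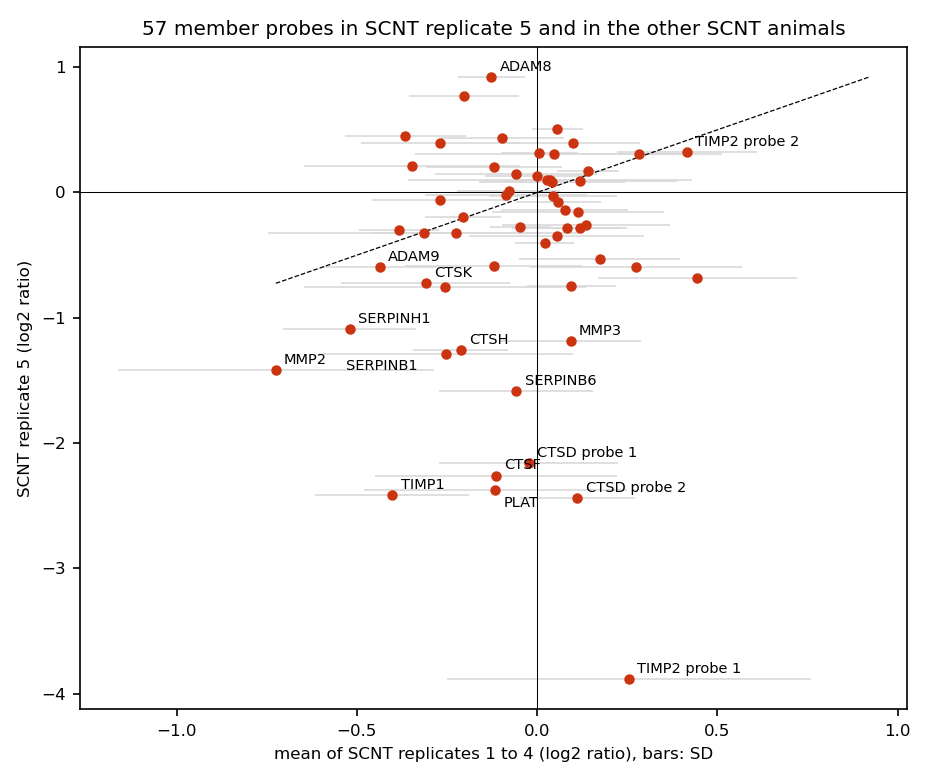
Log2 ratio of the 57 member probes in SCNT replicate 5 (vertical axis) against the mean of SCNT replicates 1 to 4 (horizontal axis, bars are their SD); the dashed line marks equal values. TIMP2 probe 1, CTSD, CTSF and PLAT fall below -2 in replicate 5 with the other cows near 0, whereas MMP2, SERPINH1 and ADAM9 are negative on both axes.

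Other genes of extracellular and lysosomal proteolysis were taken from a list of 69, of which 42 were measured. None passed the adjusted limma test in SCNT, IVF-ET or AI. At an unadjusted p under 0.05, 5 were positive and 9 negative in SCNT (6.05% and 8.73% of all probes), 3 and 3 in IVF-ET (3.99% and 3.96%), and 4 and 0 in AI (2.21% and 2.16%). The lowest SCNT means were those of LRP1, the endocytic receptor that clears protease complexes, at -0.83 ± 0.21 (adjusted p 0.0587, with replicate 5 at -2.11), BSG, a membrane protein that induces MMPs in neighbouring cells, at -0.82 ± 0.29 (replicate 5 at -3.02), and CST6, a cystatin that inhibits cysteine cathepsins, at -0.68 ± 0.32 (replicate 5 at -2.54). The highest were those of SPINT2, a membrane inhibitor of epithelial serine proteases, at 0.74 ± 0.19 (adjusted p 0.0557), MME, the membrane peptidase neprilysin, at 0.65 ± 0.24, and SPOCK2, a matrix proteoglycan, at 0.43 ± 0.12. For SCNT minus AI as deposited, 1 of the 42 passed, beside 0.948% of all probes: HTRA1, a secreted serine protease, at -0.80 ± 0.16 (adjusted p 0.0339). Their median in SCNT was 0.01.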

How the data were processed

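The deposited table holds 1 log ratio per spot and array, a log2 value as read here, since per the labels no base, direction or processing step is stated; the scanner, normalization and filters are not given in the sources used here. Dyes were exchanged between the 2 arrays of each cow except IVF-ET replicate 3, which was left out. The values were read as already turned to the tissues, with dye ratios as an alternative. In this reading, with the dye effect removed, the arrays of most cows correlate above 0 across opposite dyes (median r 0.12). That cannot separate the 2 readings, since a dye bias shared by the arrays would also correlate above 0. The 2 adjacent spots of a probe were averaged, the median of every array was set to 0, the mean dye effect per probe over 14 cows was taken off, and the arrays of a cow were averaged. limma 3.58.1 in R 4.3.3 (lmFit, eBayes) was fitted to all 3 groups with 1 spread per probe, on probes with a value in at least 4 of 5 AI, 4 of 5 SCNT and 3 of 4 IVF-ET cows. Tests were two-sided with Benjamini-Hochberg adjustment over 13818 probes per comparison, called under 0.05. The fit was checked on simulated independent normal values with the same spread per probe in every cow. That check does not cover the wider spread of SCNT replicate 5. The 95% intervals are limma's, and the number of cows limits the precision.

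Symbols and gene IDs came from the platform annotation: 8645 probes had 1 symbol, 105 several and 5074 none, and 8620 matched the RefSeq table of ARS-UCD2.0, with 0 symbols updated. The members and lists were chosen with earlier results of these data known. The text names every MMP, TIMP, PLAU, PLAUR and PLAT, members past the threshold, and the members with the largest means in each group, family or smallest p between groups; exceptions are marked. Where several probes measure a gene, the one with most values stands for it in family counts, and the first listed on a tie. The probes of ADAM15, CTSD and TIMP2 were tied, with values on all 30 arrays. Alternatives were other readings of the sign, centring, scaling, weights, dye orientation, single spots, groups fitted alone, and each cow left out.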

Additional observations from a re-analysis of the deposited data

Results flagged for a closer look

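Of 123 groups of cows examined (41 named genes in 3 groups), 11 held 1 cow far from the rest. This was judged by the gap to its nearest neighbour divided by the range of the group. Chance marks about 1 in 20 of groups that are independent and not picked by their values. Here genes were named partly for large SCNT means, which SCNT replicate 5 helped to make, and all genes share the same cows. The 11 are therefore a description and are not set against that rate. SCNT replicate 5 gave 7 of them: TIMP1 with a ratio of 0.804 (-2.42 against -0.63 for the next cow), ADAM8 with 0.803 (0.92 against -0.00), the first CTSD probe with 0.758, the first TIMP2 probe with 0.747, CTSH with 0.736, CTSF with 0.720 and MMP3 with 0.712. ADAMTS2 in SCNT replicate 1 had a ratio of 0.793 (-0.39 against 0.03). In IVF-ET, ADAM9 of replicate 1 had a ratio of 0.887 (-0.35 against -0.03), CTSC of replicate 1 of 0.886 (-1.02 against -0.01) and MMP20 of replicate 5 of 0.851 (0.52 against 0.12).

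Differences between groups, as deposited, were marked for SCNT minus AI in MMP2 (-1.24), SERPINH1 (-0.97) and CTSK (-0.78), each past the limma threshold. TIMP1 was marked because every cow of the groups lay on opposite sides: SCNT minus AI was -1.30 (adjusted p 0.0838) and IVF-ET minus AI -0.83 (adjusted p 0.541), and neither difference passed. All 5 differences depend on the sign of the AI group.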

How the results depend on the processing

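Numbers of members past the limma threshold moved with the processing as follows. In SCNT the 3 members became 0 when values were read as dye ratios, when IVF-ET replicate 3 was kept with its second array turned, when groups were fitted alone and on the arrays with Cy5 on the intercaruncle; 1 (MMP2) with Cy5 on the caruncle; and 5 with weights per cow. Leaving out 1 cow gave 0 to 3, with 0 without SCNT replicate 1 and 1 without SCNT replicate 2. Over all probes the 252 became 0 when values were read as dye ratios, 726 with weights, 74 with groups alone, and 2 to 325 without 1 cow. For SCNT minus AI the 3 became 0 as dye ratios, with AI turned, with the second array of IVF-ET replicate 3 turned, with groups alone and with Cy5 on the intercaruncle, and 6 with weights; leaving out 1 cow gave 0 to 5, with 1 (MMP2) after 5 of these omissions: 2 of IVF-ET (replicates 2 and 5) and 3 of SCNT (replicates 1, 2 and 4). Over all probes its 131 became 345 with weights, 10 with groups alone and 5 to 269 without 1 cow. Over all animals the 0 became 12 as dye ratios (2121 of all probes, 15.3%) and 4 with AI turned (441), and in AI the 0 became 1 as dye ratios (362 of all probes, 2.62%). Counts of 0 in IVF-ET, SCNT minus IVF-ET and IVF-ET minus AI stayed at 0 under the alternatives run, while over all probes IVF-ET had 206 with weights and 105 with groups alone. Read as dye ratios, MMP2 and SERPINH1 in SCNT changed sign to 0.31 and 0.10 (adjusted p 0.522 and 0.855). Each of 126 results for single genes was compared with the main fit by sign and by threshold, whatever the size of a shift. Apart from the 2 sign changes above, 1547 values kept both under the 14 settings other than leaving out a cow. There 30 lost and 1 gained the threshold, and 184 changed sign without passing in either fit. Without 1 cow, 1657 kept both, 37 lost the threshold and 70 changed sign without passing in either fit. TIMP1 in SCNT gained the threshold with arrays scaled to one spread (-0.65, adjusted p 0.0352). The cause of these changes was not tested, beyond fewer cows or arrays in some fits. No paired analysis was possible because replicate numbers name different cows in each group. A ratio table gives no signal over background, so dim probes could not be set apart.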
